A study of Mus musculus with 7 samples.

Results

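Mammalian genomes hold a small set of imprinted loci, at which 1 parental allele is silenced, and several of these loci carry miRNA hairpins. Outside the Dlk1-Dio3 domain, 5 such hairpins were taken by name. They are Mir675 in H19, Mir483 in Igf2, Mir335 in Mest, and Mir296 and Mir298 at the Gnas locus, with both arms of each (mmu-miR-675, mmu-miR-483, mmu-miR-335, mmu-miR-296 and mmu-miR-298, the prefix for mouse being left out from here on where it is not needed). That gives 10 of the 1966 mature miRNAs in the deposited tables, and all 10 were listed in every table. They were read in small RNA libraries of mouse hepatocytes, prepared by digesting the perfused liver with collagenase and pelleting at low speed. The ALAS12-KO group (n = 4) is labelled as an ALAS1/2 mutant, ALAS being the synthase that starts the heme pathway, and the WT group (n = 3) is wild type. Every library of both groups carries the treatment label TMX, an abbreviation left unexplained there. Strain, sex, age, Cre line and promoter are not in the labels. Nor do they tie replicates to individual mice, and the p-values therefore cover library-to-library spread that may be technical. miRNA tables hold no Alas1 or Alas2 mRNA, and the genotypes could not be checked in them.

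H19 is a maternally expressed noncoding RNA and Igf2 a paternally expressed fetal growth factor. Both are abundant in fetal mouse liver and are shut down after birth. Mest is paternally expressed and is active in mesoderm and mesenchyme, and Mir335 is processed from its intron. Mir296 and Mir298 are known as paternally expressed miRNAs transcribed antisense to the Gnas region. Of the mature products, miR-675 is known to limit placental growth in the mouse, miR-483-3p to restrain adipose tissue expansion in human and rat, and miR-335-5p to act against metastasis of human breast cancer cells through SOX4 and tenascin C. miR-296-5p is known from human endothelial cells, where it promotes the growth of vessels, and miR-298-5p from mouse neurons as a regulator of Bace1.

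The hairpins are given from RefSeq on GRCm38.p6, in which all 10 members matched by name, and their surroundings from GENCODE M21 on GRCm38. Mir335 lies at chr6:30741299-30741396 on the plus strand, inside Mest and outside all its annotated exons. Mir675 lies at chr7:142577064-142577147 on the minus strand and overlaps an exon in 3 of the 4 H19 transcripts that span it. Mir483 lies at chr7:142654924-142654996 on the minus strand, 77776 bases from Mir675, in an Igf2 intron. Mir296 (chr2:174267047-174267125) and Mir298 (chr2:174267504-174267585) lie on the minus strand 378 bases apart. Neither overlaps an annotated gene, and the antisense transcript Nespas ends 13651 bases from Mir298 in this annotation. The members that had reads in at least 6 libraries are shown with the seed, bases 2 to 8, in capitals, because the counts below rest on these sequences.
mmu-miR-335-5p: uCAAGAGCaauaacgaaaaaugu
mmu-miR-335-3p: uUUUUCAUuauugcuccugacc
mmu-miR-296-5p: aGGGCCCCcccucaauccugu
mmu-miR-296-3p: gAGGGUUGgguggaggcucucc
mmu-miR-298-5p: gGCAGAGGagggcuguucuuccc

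The 10 members have 10 different seeds, and no other listed miRNA with a RefSeq sequence shares any of them. Of the 1966 listed miRNAs, 1675 matched a RefSeq sequence by name, and the nearest other one among them differs from a member by at least 6 edits. No near copy that could split the counts was thus found among them. The listed miRNAs without a sequence were not compared. The Mir335 arms are poor in G and C, with 30.4% for miR-335-5p and 36.4% for miR-335-3p, while the other members run from 50.0% to 68.2%. The Mir335 hairpin is printed with the arms in capitals, since it supplied nearly all reads of the set.
Mir335: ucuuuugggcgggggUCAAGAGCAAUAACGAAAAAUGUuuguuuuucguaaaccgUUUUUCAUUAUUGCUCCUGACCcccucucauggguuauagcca

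The libraries held 10093244 to 17091539 miRNA reads in ALAS12-KO and 7719180 to 21962191 in WT. Levels are CPM, reads per 1000000 of these miRNA reads. miR-122-5p, the defining hepatocyte miRNA, took 53.5% to 61.5% of them in ALAS12-KO and 57.1% to 59.4% in WT, and all 7 hepatocyte markers were detected in every library. ALAS12-KO replicate 1 stood apart. It was the lowest of the 7 libraries in all 13 endothelial, leukocyte and mesenchymal markers, so several results are also given without it.

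Mest was the 1 locus of the 4 with a substantial output. Its hairpin gave 15109 of the 15188 reads of the 10 members, or 99.5%. The Gnas hairpins gave 76 reads, Igf2 gave 2 and H19 gave 1, out of 102446618 miRNA reads in all 7 libraries. Mest supplied 99.2% of the members' reads in ALAS12-KO and 99.7% in WT.

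**Figure D1:**
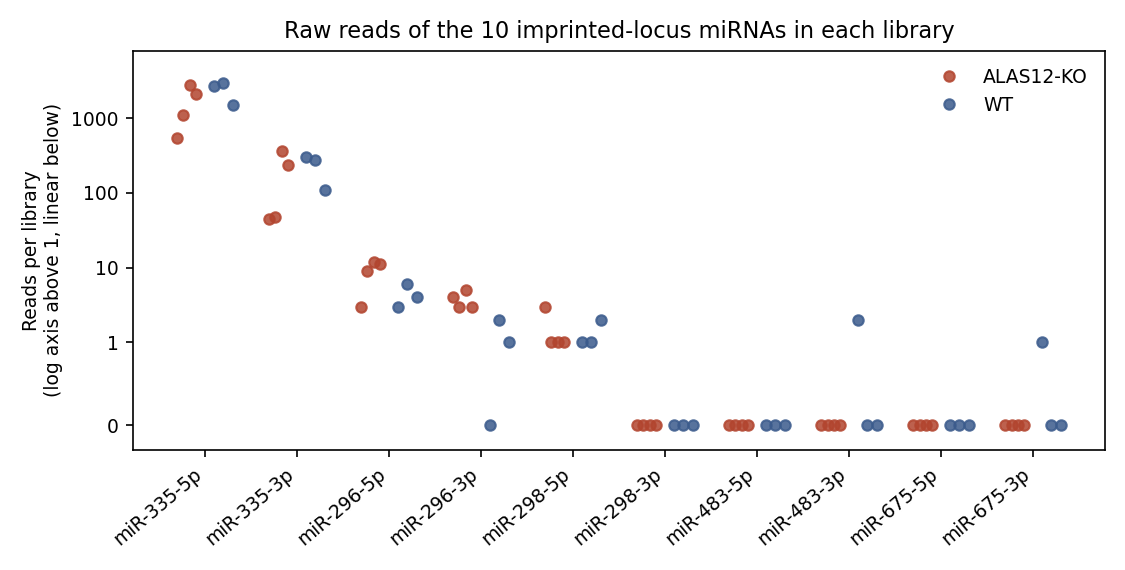
Raw reads of each of the 10 members in each library (vertical axis, logarithmic above 1 and linear below), ALAS12-KO to the left of WT for each miRNA. miR-335-5p had 538 to 2952 reads per library, while miR-675-5p, miR-483-5p and miR-298-3p had 0 in all 7.

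The H19 and Igf2 products were at or next to 0. mmu-miR-675-5p and mmu-miR-483-5p had 0 reads in every library, which over all 7 allows a level of up to 0.0293 CPM (3 counts). Like the other floors and the intervals on shares of reads, this limit covers counting error only. miR-675-3p had 0 reads in each ALAS12-KO library, against 1 read in WT replicate 1 and 0 in WT replicates 2 and 3. miR-483-3p had 0 reads in each ALAS12-KO library, against 2 reads in WT replicate 1 and 0 in the others. A floor of 3 reads in a single library stands at 0.176 to 0.297 CPM in ALAS12-KO and at 0.137 to 0.389 CPM in WT, so differences of these members between the genotypes were not detectable at this depth. Of all 1966 listed miRNAs, 664 (33.8%) had 0 reads in all 7 libraries, against 3 of the 10 members, the third being miR-298-3p.

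mmu-miR-335-5p was the abundant member, and its levels ranged more widely within ALAS12-KO than the means of the genotypes differed. Its level was 40.8, 110.6, 165.2 and 129.5 CPM in ALAS12-KO replicates 1 to 4, against 167.9, 134.4 and 192.5 CPM in WT replicates 1 to 3. ALAS12-KO replicate 1 was by far the lowest library, ALAS12-KO replicate 3 stood within the WT range, and the groups overlapped. Among all listed miRNAs it ranked 95 to 132 in ALAS12-KO and 85 to 95 in WT. The mean was 112 ± 52.3 CPM (SD, n = 4) in ALAS12-KO and 165 ± 29.2 CPM (SD, n = 3) in WT. Without ALAS12-KO replicate 1 the ALAS12-KO mean was 135 ± 27.7 CPM (SD, n = 3).

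**Figure D2:**
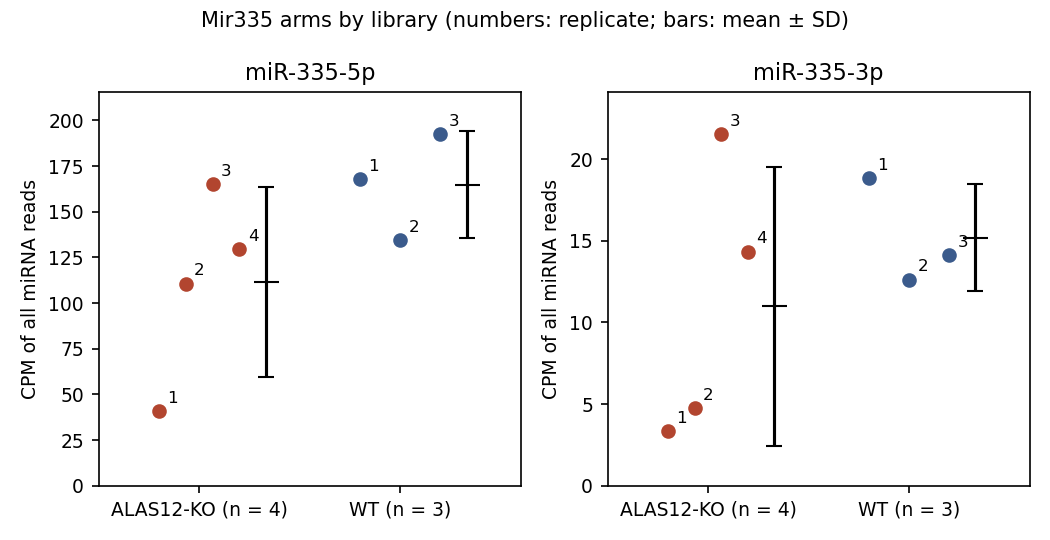
CPM of miR-335-5p and miR-335-3p in each library, with replicate numbers beside the points and the mean ± SD of each genotype to the right of them. The ALAS12-KO libraries run from 40.8 to 165.2 CPM for miR-335-5p and from 3.34 to 21.5 CPM for miR-335-3p, overlapping WT in both.

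The difference in miR-335-5p did not pass the test. Its log2 fold change, ALAS12-KO over WT, was −0.43 ± 0.33 (SE), with a 95% interval of −1.18 to 0.31 and an adjusted p of 0.470 by edgeR's quasi-likelihood test with TMM factors. The edgeR test called 0 of 450 tested miRNAs (0%), with 84 (18.7%) at an unadjusted p under 0.05, while limma-voom called 0 and DESeq2 called 21, none of them a member. Over the 450 tested miRNAs the median log2 fold change was 0.06 with TMM and −0.12 with library totals, and miR-335-5p stood below it with both, at −0.43 and −0.56. Without ALAS12-KO replicate 1 its log2 fold change was −0.21 ± 0.17, and without ALAS12-KO replicate 3 it was −0.67 ± 0.35.

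The level of miR-335-5p moved with the summed mesenchymal, endothelial and leukocyte markers. The 5 mesenchymal markers (miR-143-3p, miR-145a-5p, miR-199a-5p, miR-199a-3p and miR-214-3p), typical of smooth muscle, fibroblasts and stellate cells, summed to 1564, 3516, 5730 and 4125 CPM in ALAS12-KO replicates 1 to 4, against 6048, 4165 and 6971 CPM in WT replicates 1 to 3. The 7 libraries stood in the same order by this sum as by miR-335-5p, from ALAS12-KO replicate 1 at the low end to WT replicate 3 at the high end. Most of the sum was miR-143-3p, with 1229 CPM in ALAS12-KO replicate 1 and 5414 CPM in WT replicate 3. Of the 5 markers, miR-214-3p went the other way, with a mean of 9.01 CPM in ALAS12-KO and 7.29 CPM in WT. The others had lower means in ALAS12-KO. Set against these markers, miR-335-5p had 26.1, 31.4, 28.8 and 31.4 reads per 1000 marker reads in ALAS12-KO replicates 1 to 4, against 27.8, 32.3 and 27.6 in WT. The means were 29.4 ± 2.54 (SD, n = 4) in ALAS12-KO and 29.2 ± 2.65 (SD, n = 3) in WT. The highest library thus stood 1.24 times above the lowest on this scale, compared with 4.71 times in CPM. The lowest CPM was that of ALAS12-KO replicate 1. Without that library, miR-335-5p ran from 110.6 to 192.5 CPM, and from 27.6 to 32.3 reads per 1000 mesenchymal marker reads. This scale was chosen after the values were seen and carries no test.

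The endothelial and leukocyte lists tracked miR-335-5p more closely than the cholangiocyte and red cell lists did. Per 1000 reads of the 2 endothelial markers, both arms of miR-126a, miR-335-5p had 4.24 ± 0.352 reads (SD, n = 4) in ALAS12-KO and 3.96 ± 0.409 (SD, n = 3) in WT. Per 1000 reads of the 6 leukocyte markers it had 15.6 ± 1.505 (SD, n = 4) in ALAS12-KO and 17.7 ± 2.91 (SD, n = 3) in WT. Per 1000 reads of the 7 hepatocyte markers the spread stayed wide, at 0.175 ± 0.0893 (SD, n = 4) in ALAS12-KO and 0.256 ± 0.0505 (SD, n = 3) in WT. These markers made up 60.7% to 69.3% of the miRNA reads of a library. A scale per hepatocyte marker read is therefore close to CPM and cannot show whether miR-335-5p follows hepatocytes. Over the 7 libraries the coefficient of variation of miR-335-5p was 36.9% in CPM, 39.1% per hepatocyte marker read, 8.04% per mesenchymal, 9.10% per endothelial and 13.7% per leukocyte marker read. It was 33.9% per cholangiocyte and 29.6% per red cell marker read. These coefficients, and the likeness of profiles below, include ALAS12-KO replicate 1 and were not computed without it. Over the tested miRNAs outside the list, the median of this coefficient per mesenchymal marker read was 56.0%, and 2 of 445 had a smaller one than miR-335-5p. Per endothelial marker read the median was 56.8%, with 8 of 448 smaller, and per leukocyte marker read 51.1%, with 14 of 444 smaller. In CPM the median over all tested miRNAs was lower, at 33.7%, and 256 of 450 had a smaller coefficient than miR-335-5p. No marker on any of the 6 lists was at 0 in any library. The part of these cell types in the miR-335-5p values was not tested, and in bulk samples fewer cells of a type and less RNA per cell cannot be told apart.

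**Figure D3:**
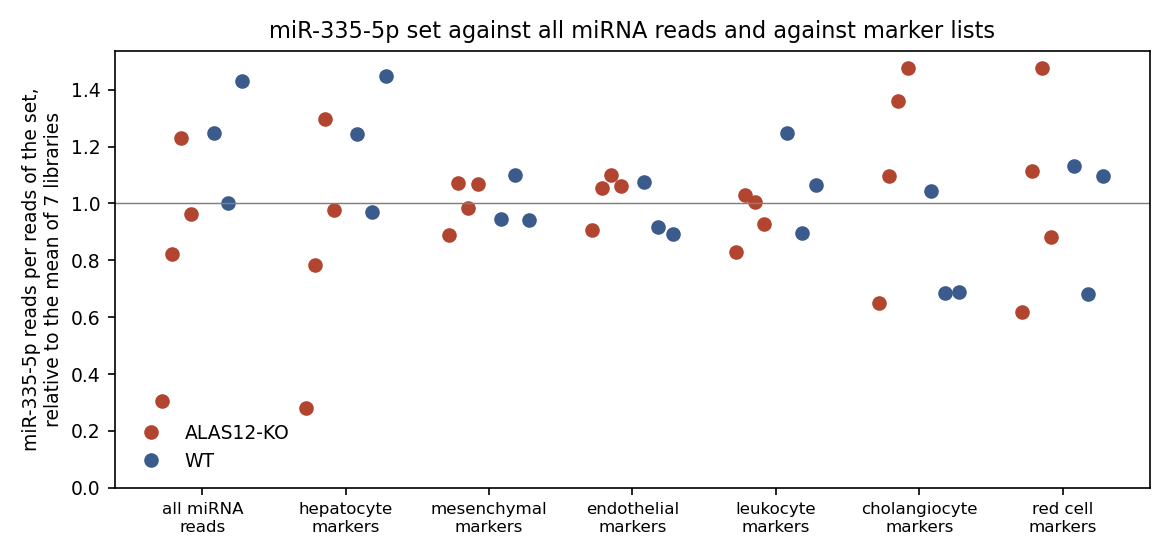
miR-335-5p reads divided by all miRNA reads or by the summed reads of a marker list, relative to the mean of the 7 libraries (vertical axis), ALAS12-KO to the left of WT. The points lie within 26.1 to 32.3 reads per 1000 mesenchymal marker reads, but spread from 40.8 to 192.5 CPM when set against all miRNA reads.

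The miRNAs whose profile over the 7 libraries was most like that of miR-335-5p were not on the marker lists used above. By the root-mean-square difference of centred log2 CPM, the nearest of 449 others were miR-322-5p at 0.09, miR-143-5p at 0.10 and miR-145a-3p at 0.10, where the median over all others was 0.67. miR-322-5p belongs to the extended miR-15/16 family, and it had 142.0, 329.4, 528.8 and 410.4 CPM in ALAS12-KO, against 535.9, 484.7 and 658.9 CPM in WT. miR-143-5p and miR-145a-3p are the minor arms of the smooth muscle hairpins whose major arms are 2 of the 5 mesenchymal markers. miR-143-5p averaged 39.0 CPM in ALAS12-KO and 64.1 CPM in WT, and miR-145a-3p 27.1 CPM in ALAS12-KO and 43.8 CPM in WT. The other arm of the Mir335 hairpin was far less alike, at 0.49 and rank 96 of 449.

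mmu-miR-335-3p, the minor arm, was spread even more widely. It had 3.34, 4.76, 21.5 and 14.3 CPM in ALAS12-KO replicates 1 to 4, against 18.9, 12.6 and 14.1 CPM in WT replicates 1 to 3. ALAS12-KO replicates 1 and 2 were below all WT libraries and ALAS12-KO replicate 3 was above them all. Its mean was 11.0 ± 8.56 CPM (SD, n = 4) in ALAS12-KO and 15.2 ± 3.25 CPM (SD, n = 3) in WT, and its log2 fold change was −0.38 ± 0.49 (SE, edgeR adjusted p = 0.691). That value hung on single libraries, at −0.12 without ALAS12-KO replicate 1, −0.18 without ALAS12-KO replicate 2, −0.19 without WT replicate 1 and −0.89 without ALAS12-KO replicate 3.

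The balance of the Mir335 arms differed between libraries by more than counting error, and its difference between the genotypes did not pass the test. The 3p arm made up 7.56%, 4.12%, 11.5% and 9.97% of the reads of both arms in ALAS12-KO replicates 1 to 4, against 10.1%, 8.58% and 6.83% in WT replicates 1 to 3. ALAS12-KO replicate 2 was lowest, with 48 of 1164 reads and a 95% Wilson interval of 3.12% to 5.43%. ALAS12-KO replicate 3 was highest, with 368 of 3191 reads and an interval of 10.5% to 12.7%. The mean share was 8.30% ± 3.23 (SD, n = 4) in ALAS12-KO and 8.50% ± 1.63 (SD, n = 3) in WT. The log2 ratio of 3p to 5p reads averaged −3.56 ± 0.70 (SD, n = 4) in ALAS12-KO and −3.44 ± 0.31 (SD, n = 3) in WT. Their difference of −0.12 ± 0.39 (SE) had a limma adjusted p of 0.944 over 130 hairpins, of which limma called 0 (0%), with 7 (5.38%) at an unadjusted p under 0.05. It turned positive without ALAS12-KO replicate 2 (0.21) or WT replicate 1 (0.03). The lowest shares, in ALAS12-KO replicate 2 and WT replicate 3, came from the libraries with the most reads aligned outside any miRNA, 72.2% and 73.7% of all counted reads, where the other libraries had 50.9% to 60.6%. The same libraries also had the fewest miRNA reads, 10093244 in ALAS12-KO replicate 2 and 7719180 in WT replicate 3. The part of either property in the arm balance was not tested.

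**Figure D4:**
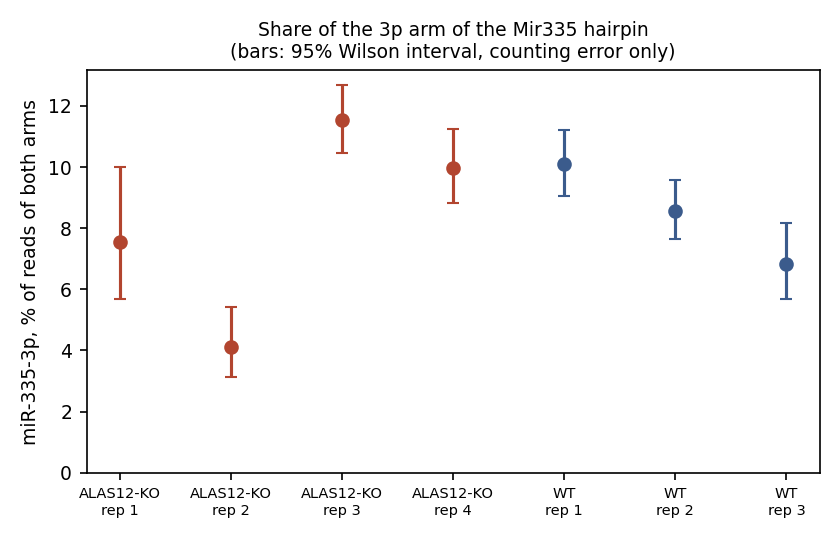
Share of miR-335-3p among the reads of both Mir335 arms in each library, in percent, with 95% Wilson intervals that cover counting error only. The ALAS12-KO libraries run from 4.12% to 11.5% and enclose the WT range of 6.83% to 10.1%.

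The Gnas hairpins were detected in both genotypes at levels near the floor, with a higher mean for Mir296 in ALAS12-KO. mmu-miR-296-5p had 3, 9, 12 and 11 reads in ALAS12-KO replicates 1 to 4, against 3, 6 and 4 reads in WT replicates 1 to 3. In CPM, the mean was 0.623 ± 0.281 (SD, n = 4) in ALAS12-KO and 0.326 ± 0.172 (SD, n = 3) in WT, and the groups overlapped, with ALAS12-KO replicate 1 within the WT range. Its log2 fold change was 1.18 ± 0.51 (SE) with an unadjusted p of 0.0460 and an adjusted p of 0.264 by edgeR, so it did not pass. It entered the test only because 3 ALAS12-KO libraries and 0 WT libraries reached the filter's 0.624 CPM, so a higher fitted value in ALAS12-KO was built into its selection, and the filter dropped it whenever ALAS12-KO replicate 2, 3 or 4 was left out. Without ALAS12-KO replicate 1 it had 1.38 ± 0.45 (edgeR adjusted p = 0.131). The miRNAs most alike in profile were miR-20b-5p at a root-mean-square difference of 0.36, miR-664-3p at 0.38 and miR-1839-3p at 0.38 log2 units. The median over 449 others was 0.69. At 3 to 12 reads per library, counting error alone keeps the miR-296-5p profile from lying close to any other. These distances therefore cannot be compared with those of miR-335-5p, and the profile is subject to the same selection by the filter.

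The other arm of Mir296 was rarer. mmu-miR-296-3p had 4, 3, 5 and 3 reads in ALAS12-KO replicates 1 to 4, against 0, 2 and 1 reads in WT replicates 1 to 3. Its level was 0.183 to 0.304 CPM in ALAS12-KO and 0 to 0.130 CPM in WT, so the groups did not overlap. Of the 197 miRNAs with 10 to 30 reads in all, 7 (3.55%) were separated in that direction. It did not pass the filter on low counts, and with every miRNA that had a read kept in the fit, its edgeR adjusted p was 0.403. The WT libraries were under the floor of 3 reads. Over each group's pooled reads the 3p arm made up 30.0% of Mir296 reads in ALAS12-KO (15 of 50, 95% Wilson interval 19.1% to 43.8%) and 18.8% in WT (3 of 16, 6.59% to 43.0%), intervals that overlap.

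mmu-miR-298-5p had 3, 1, 1 and 1 reads in ALAS12-KO replicates 1 to 4, against 1, 1 and 2 reads in WT replicates 1 to 3, at or under the floor in every library. miR-298-3p had 0 reads in all 7. Although Mir298 lies next to Mir296 on the same strand, it gave 10 reads in all, against 48 for miR-296-5p and 18 for miR-296-3p. The log2 ratio of miR-298-5p to miR-296-5p, with 0.5 added to each count, was −2.17 ± 1.45 (SD, n = 4) in ALAS12-KO and −1.40 ± 0.65 (SD, n = 3) in WT. The difference of −0.77 had a two-sided exact permutation p of 0.457, where the smallest possible over 35 splits is 0.0286. Without ALAS12-KO replicate 1, which had the highest ratio, the difference was −1.49 with an exact permutation p of 0.1, the smallest that 3 against 3 allows.

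Of the 10 members, 3 passed the filter and were tested, and 0 were called by edgeR, against 0% of all tested miRNAs, and 1, miR-296-5p, had an unadjusted p under 0.05, as did 18.7% of all tested miRNAs. miR-335-5p and miR-335-3p had a negative log2 fold change under every setting run. miR-296-5p had a positive one where it was kept, a sign that its selection favoured wherever a filter was used.

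**Figure D5:**
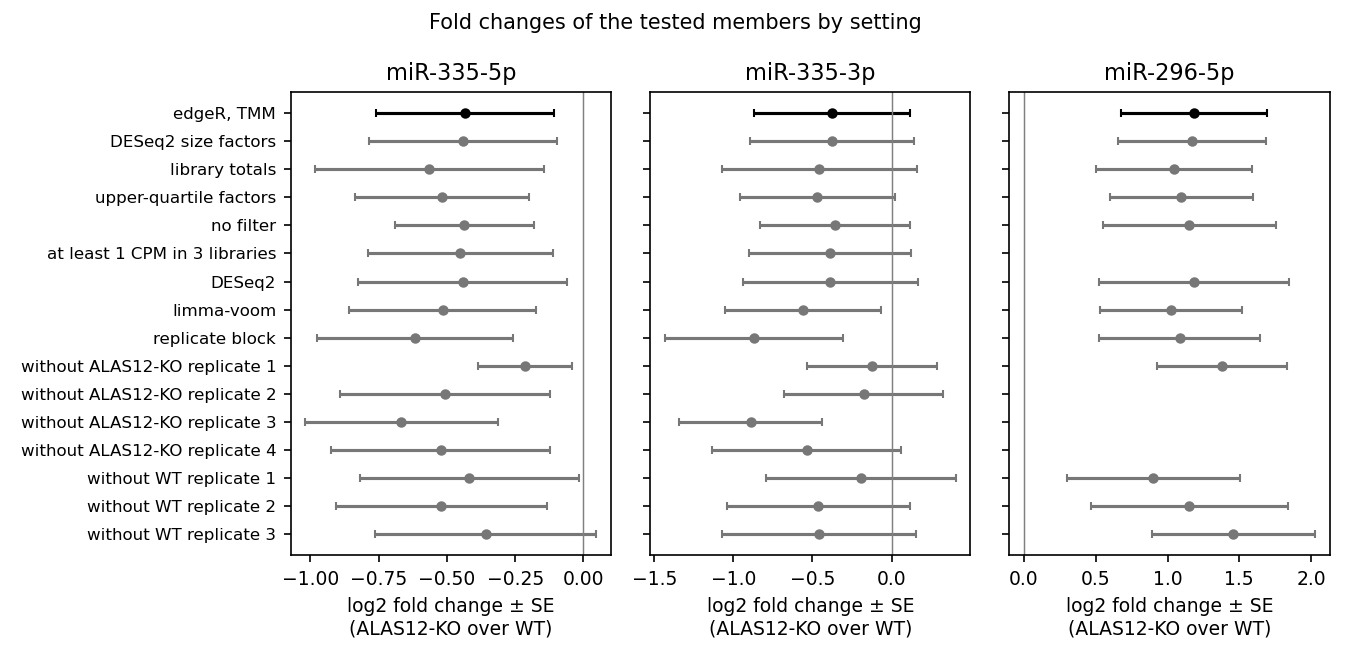
Log2 fold change ± SE, ALAS12-KO over WT, of the 3 tested members (horizontal axes) under each setting (rows); gaps are settings whose filter dropped the miRNA. miR-335-5p stays between −0.67 and −0.21, miR-335-3p between −0.89 and −0.12, and miR-296-5p between 0.90 and 1.46.

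The other imprinted miRNA clusters served as a setting for these values, from lists that were drawn up with earlier results of these data known. In the Dlk1-Dio3 domain, whose miRNAs are expressed from the maternal allele, 41 of 104 listed miRNAs were tested. All 41 had a negative log2 fold change, with a median of −0.85, where 44.0% of all tested miRNAs were negative. They come from a single domain read in the same libraries, so they are not 41 independent observations. The count was not repeated without ALAS12-KO replicate 1. Of the 41, 0 were called by edgeR in either direction and 18 had an unadjusted p under 0.05, all lower. Among the 450 tested miRNAs, 84 (18.7%) had one, 38 of them lower. On the TMM scale the domain's most abundant member was miR-379-5p. It had 72.2 ± 25.5 CPM (SD, n = 4) in ALAS12-KO and 118 ± 32.99 CPM (SD, n = 3) in WT. Its log2 fold change was −0.71 ± 0.31, with an edgeR adjusted p of 0.264. Of the miR-297, miR-466, miR-467 and miR-669 families, which fill an intron of the imprinted Sfmbt2, 3 of 80 listed miRNAs were tested, all negative with a median of −0.21, and 0 were called by edgeR, with 0 at an unadjusted p under 0.05. On the same TMM scale miR-335-5p averaged 113 ± 43.0 CPM (SD, n = 4) in ALAS12-KO and 153 ± 19.3 CPM (SD, n = 3) in WT.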

How the data were processed

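The deposited tables hold whole-number read counts per mature miRNA, 1 table per library, as the values show. The submitters' processing notes name cutadapt, limma, mm10 and hg38 without roles or versions. The aligner, counter, strand setting and annotation of miRNAs were not stated in the sources used here. In each table, 5 summary entries did not count towards library sizes and held 50.9% to 73.7% of counted reads as outside any miRNA and 4.54% to 8.00% as not aligned. The control RNAs added to the samples were not analysed here, so levels are relative to all miRNAs of a library. No pair of replicates matched within counting error (chi-square 97.4 to 1104 per degree of freedom).

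Python 3.11.15 computed CPM on library totals. edgeR 4.0.16 in R 4.3.3 (robust quasi-likelihood fit, TMM, filterByExpr with a minimum count of 10, Benjamini-Hochberg adjustment over 450 miRNAs, threshold 0.05) compared ALAS12-KO with WT over all 7 libraries. limma 3.58.1 tested log2 arm ratios with 0.5 added, over 130 hairpins, and 1 ratio of 2 miRNAs had an exact permutation test. Alternatives were DESeq2 1.42.0, limma-voom, other scalings and filters, each library left out in turn, and a block for the replicate number. The fits were tested on simulated data.

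All 10 members are reported. The members, marker lists and cluster lists were chosen with earlier results of these data known. For the most abundant tested member of each locus, the 3 tested miRNAs with the most similar profile are named; any other miRNA is named as a marker or as the most abundant of a cluster list.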

Additional observations from a re-analysis of the deposited data

Results flagged for a closer look

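In ALAS12-KO (n = 4), 13 measures of the members were checked for a library far from the others, and 2 were found. Several of the 13 use the same miR-335-5p reads, so they are not separate checks. The nominal rate of about 1 in 20 is for normally distributed values and need not hold for counts of a few reads. For miR-296-3p, ALAS12-KO replicate 4 was the lowest, 0.908 of the group's range away from the next; it had 3 reads, and ALAS12-KO replicates 1 to 3 had 3 to 5. For the ratio of miR-298-5p to miR-296-5p, ALAS12-KO replicate 1 was the highest, with a gap of 0.871 of the range; it had 3 reads of each miRNA. Both rest on a few reads.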

How the results depend on the processing

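The fold changes of miR-335-5p and miR-335-3p kept their direction, and none of the 3 tested members came under the adjusted threshold, in any alternative that gave a value. In the settings with a filter the direction of miR-296-5p says nothing of stability, since the filter kept it only through its ALAS12-KO libraries. With no filter it had 1.15 ± 0.60 (SE, edgeR adjusted p = 0.503). With other scalings, filters, tools and the block, miR-335-5p ran from −0.62 to −0.44, miR-335-3p from −0.87 to −0.36 and miR-296-5p from 1.02 to 1.19. Leaving out 1 library at a time gave −0.67 to −0.21 (adjusted p 0.277 to 0.705), −0.89 to −0.12 (0.272 to 0.916) and 0.90 to 1.46 (0.131 to 0.522). miR-296-5p had no value at a minimum of 1 CPM in 3 libraries or without ALAS12-KO replicate 2, 3 or 4. The Mir335 arm ratio ran from −0.32 to 0.21 with 1 library left out, and the ratio of miR-298-5p to miR-296-5p from −1.49 to −0.47 (exact permutation p 0.1 to 0.8; −1.49 without ALAS12-KO replicate 1). Over all miRNAs the edgeR test called 0, against 2 with library totals, 13 with no filter, 21 with DESeq2, and 0 to 1 with 1 library left out; the cause was not tested. Replicate numbers were shared between the genotypes, and the deviations of same-numbered libraries from their group means had correlations of −0.02, −0.42 and −0.02. Over all pairs across the genotypes the correlations ran from −0.42 to 0.48, the highest for ALAS12-KO replicate 2 with WT replicate 3. Deviations within a group are tied to each other, so these values cannot decide whether equal numbers mean shared handling. With the replicate block miR-335-5p had −0.62, miR-335-3p −0.87, miR-296-5p 1.09, the arm ratio −0.24 and the ratio of miR-298-5p to miR-296-5p −0.51, and 0 miRNAs and 0 hairpins were called. Depth limits the H19, Igf2 and Gnas products, which had at most 12 reads in any library.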
